A study of Mus musculus with 8 samples.

Results

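The Notch pathway of the embryonic mouse brain was followed through 10 genes, chosen by name for their place in the pathway. Earlier results of these data were known when they were chosen, so that counts among the 10 are a description of these genes. They were 3 receptor genes (*Notch1*, *Notch2* and *Notch3*), 3 ligand genes (*Dll1*, *Dll3* and *Jag1*), the nuclear effector gene *Rbpj* and 3 target genes (*Hes1*, *Hes5* and *Hey1*). All 10 were found among the 33971 genes of the count table, and all 10 passed the filter on low counts. The brains came from wild-type embryos at E14.5 of 2 wild-type parents, and the mothers had been fed either a choline-deficient diet (CDD, 4 brains) or normal chow (ND, 4 brains) from mating onwards. Polyadenylated RNA of the whole brain was sequenced in bulk, so that every value is an average over progenitors, neurons, vessels and meninges, and fewer cells of a type and less RNA per cell cannot be told apart. The strain, and how many mothers and litters the brains came from, are not given in the sources used here, so that p-values measure the spread between these brains only.

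Notch signaling passes from cell to cell by contact. A ligand of the Delta-like or Jagged family on one cell binds a Notch receptor on its neighbour, the receptor is cut inside the membrane, and its freed intracellular part joins the DNA-binding protein RBPJ to switch on genes such as *Hes1*, *Hes5* and *Hey1*. The proteins of these target genes are repressors that hold back proneural factors, and in the embryonic brain they are best known for keeping radial glia, the stem cells of the ventricular zone, from becoming neurons too early. Newly committed cells in turn carry Delta-like ligands, which are themselves switched on by proneural factors.

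Summed over genes, libraries of the CDD group held 32706627 to 43121170 counts and those of the ND group 31770217 to 34399295. Counts of the 10 genes in single brains lay between 452 reads (*Hes1* in ND replicate 3) and 8429 reads (*Notch1* in CDD replicate 3). Of the libraries, 2 stood apart. CDD replicate 4 was the farthest from the ND brains over all genes: chi-square of the counts, divided by its degrees of freedom, was 21.7 to 31.3 against them, and 4.05 to 18.5 for the other pairs of a CDD and an ND brain. CDD replicate 2 held 4984 reads on 28 Hox genes, which mark the caudal hindbrain and the spinal cord, whereas the other CDD brains held 20 to 112 and the ND brains 16 to 49. Values without these brains are therefore given with each result that turned on them. Expression is given as CPM (counts relative to a library size scaled by TMM), which compares 1 gene between brains, and as FPKM, which is also divided by gene length and compares genes with each other.

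All 10 Notch genes had a higher mean in CDD than in ND brains, by 12.6% (*Notch3*) to 23.8% (*Dll3*). Of these, 5 rose past an adjusted p-value of 0.05 in edgeR's quasi-likelihood test, namely *Dll3*, *Rbpj*, *Notch2*, *Notch3* and *Jag1*, 0 were lower, and 5 did not pass the threshold. Among all 19367 genes tested, 4.24% were called higher in CDD brains and 8.83% were called in either direction. The 10 log2 fold changes lay between 0.17 and 0.31, with a median of 0.22, whereas the median over all tested genes was -0.0038. All 10 had an unadjusted p-value under 0.05 and a positive fold change, as did 11.8% of all genes tested (23.9% in either direction). The lowest CDD brain exceeded the highest ND brain for 5 of the 10 (*Notch3*, *Dll3*, *Jag1*, *Hey1* and *Rbpj*), a separation found upward in 7.65% and downward in 7.39% of all genes tested. DESeq2 called 7 of the 10, adding *Notch1* and *Hey1*, where it called 7.12% of its tested genes higher and 13.9% in either direction. The calls leaned on the ND brains: 1 of the 10 genes was called without ND replicate 3, and 2 were called without ND replicate 1 or without ND replicate 4, while the share of all genes called higher fell to 1.04%, 1.52% and 1.42%. Without CDD replicate 2, 5 of the 10 were called, and without CDD replicate 4, 6 were (*Dll3*, *Rbpj*, *Notch2*, *Notch3*, *Hes1* and *Hes5*).

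**Figure D1:**
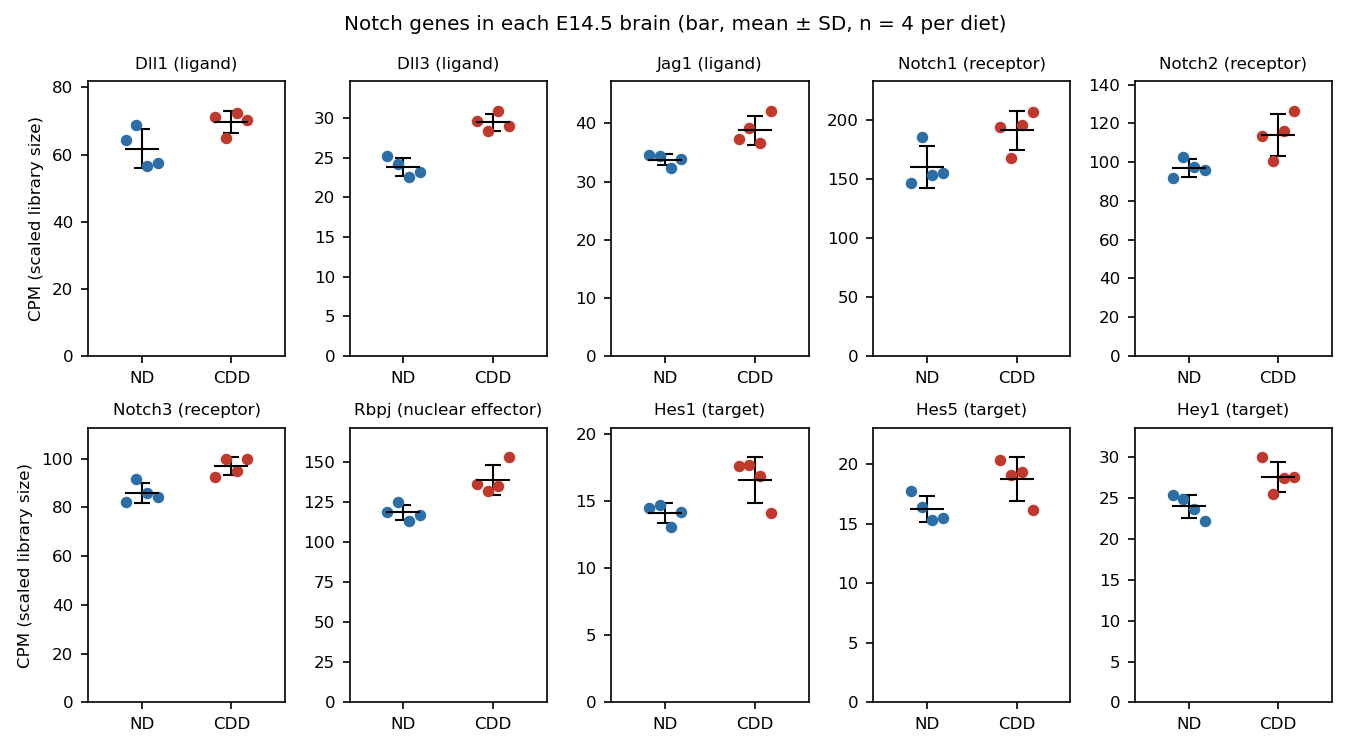
CPM of the 10 Notch genes (vertical axes, from 0) in each of the 4 ND (blue) and 4 CDD (red) brains, with the mean and SD of each diet in black. The CDD points sit higher on average in every panel, without overlap for *Dll3*, *Jag1*, *Notch3*, *Rbpj* and *Hey1*.

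**Figure D2:**
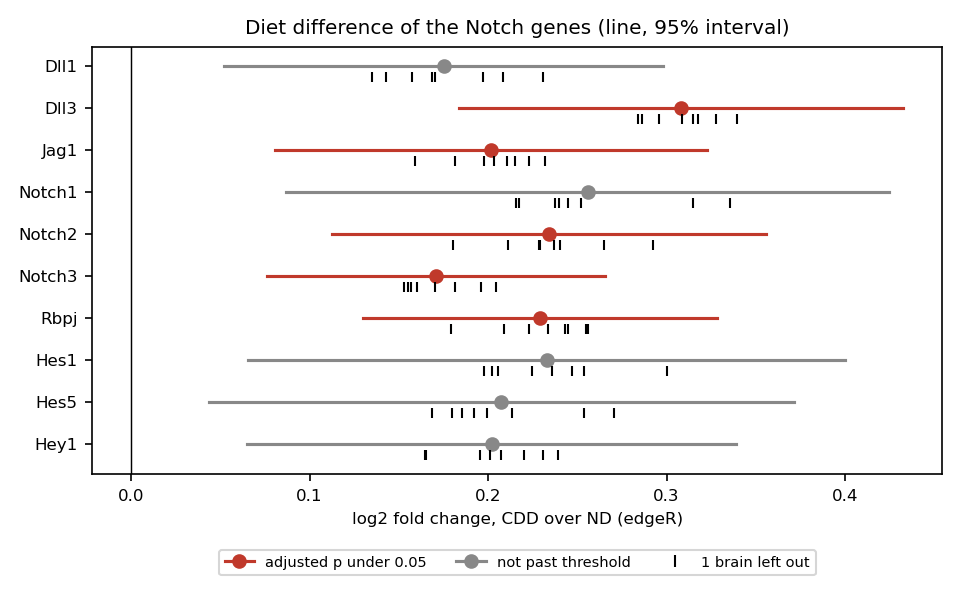
Log2 fold change of CDD over ND for the 10 Notch genes (points) with its 95% interval (lines), in red past an adjusted p-value of 0.05 and in grey otherwise, with black ticks for the 8 fits that leave out 1 brain each. All points, intervals and ticks lie above 0, between 0.14 and 0.34 for the ticks.

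Of the ligands, *Dll3* (ENSMUSG00000003436, chromosome 7, 27992978 to 28001663) showed the largest difference of the 10 genes. Its product is a divergent Delta-like protein that stays mostly inside the cell and does not activate Notch on neighbouring cells. In CDD brains *Dll3* was at 29.7, 28.4, 30.9 and 29.0 CPM, and in ND brains at 25.2, 24.3, 22.6 and 23.2 CPM. The diets did not overlap, and the 4 CDD values spread by an SD of 1.08 CPM. The log2 fold change of *Dll3* was 0.31 (standard error, SE, 0.059, adjusted p = 0.00431). It was the one gene of the 10 that stayed past the threshold with each brain left out in turn, with adjusted p-values of 0.00276 to 0.0317.

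*Dll1* (ENSMUSG00000014773, chromosome 17, 15587616 to 15597134), the main activating Delta-like ligand of neural progenitors, was at 71.2, 65.1, 72.5 and 70.3 CPM in CDD brains and at 64.3, 68.7, 56.6 and 57.6 CPM in ND brains. ND replicate 2 lay above CDD replicate 2, so that the diets overlapped. The log2 fold change of *Dll1* was 0.18 (SE 0.059, adjusted p = 0.0694), and it passed the threshold in 1 of 8 fits with a brain left out (without ND replicate 2, adjusted p = 0.0230). *Jag1* (ENSMUSG00000027276, chromosome 2, 136923376 to 136958564), a Jagged ligand, was at 37.4, 39.3, 36.6 and 42.2 CPM in CDD brains and at 34.5, 34.3, 32.3 and 33.9 CPM in ND brains. All CDD brains were above all ND brains, whose values were tight (SD 1.00 CPM against 2.48 in the CDD group). *Jag1* rose by 0.20 on the log2 scale (SE 0.058, adjusted p = 0.0360), a call that held in 2 of 8 fits with a brain left out and was lost without CDD replicates 2 or 4 or any 1 ND brain, with adjusted p-values up to 0.15.

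The 3 receptor genes encode large membrane proteins that serve as both receptor and, once cut, as gene activator. *Notch1* (ENSMUSG00000026923, chromosome 2, 26347915 to 26406675), the main receptor of ventricular zone progenitors, was at 194, 167, 196 and 206 CPM in CDD brains and at 146, 185, 153 and 155 CPM in ND brains. Within each diet 1 brain was out of step: CDD replicate 2 was low and ND replicate 2 was high, and these 2 brains alone made the diets overlap. The log2 fold change of *Notch1* was 0.26, with an SE of 0.078, wider than that of every other gene of the 10 but *Hes1* and *Hes5* (adjusted p = 0.0624). It was 0.32 without CDD replicate 2 (adjusted p = 0.0120) and 0.34 without ND replicate 2 (adjusted p = 0.00424).

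*Notch2* (ENSMUSG00000027878, chromosome 3, 97920843 to 98057677) was at 114, 100, 116 and 126 CPM in CDD brains and at 91.8, 103, 97.4 and 95.9 CPM in ND brains. Here too CDD replicate 2 was the lowest CDD brain and ND replicate 2 the highest ND brain, and they overlapped. *Notch2* rose by 0.23 on the log2 scale (SE 0.058, adjusted p = 0.0191), and the call was lost without ND replicate 1, 3 or 4 (adjusted p = 0.0676 to 0.0838). *Notch3* (ENSMUSG00000038146, chromosome 17, 32339794 to 32385826), which is expressed in progenitors and is also the characteristic Notch receptor of mural cells of vessels, was at 92.4, 100, 95.1 and 99.7 CPM in CDD brains and at 82.4, 91.8, 85.8 and 84.1 CPM in ND brains. The groups did not overlap, but CDD replicate 1 and ND replicate 2 were less than 1 CPM apart. *Notch3* rose by 0.17 on the log2 scale (SE 0.045, adjusted p = 0.0253). In contrast to *Notch1* and *Notch2*, CDD replicate 2 was not its lowest CDD brain but was about level with CDD replicate 4 as the highest. The call of *Notch3* was lost without CDD replicate 2 (adjusted p = 0.0673), as it was without ND replicate 1, 3 or 4 (adjusted p = 0.100 to 0.111).

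*Rbpj* (ENSMUSG00000039191, chromosome 5, 53623494 to 53814704) encodes the DNA-binding protein through which all Notch receptors act. It was at 136, 132, 135 and 153 CPM in CDD brains and at 119, 125, 114 and 117 CPM in ND brains. No ND brain reached the lowest CDD brain, and CDD replicate 4 was the highest. *Rbpj* rose by 0.23 on the log2 scale (SE 0.047, adjusted p = 0.00651), and the call held in 7 of 8 fits with a brain left out, the exception being the fit without ND replicate 3 (log2 fold change 0.21, adjusted p = 0.0552).

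Of the 3 target genes 0 passed the threshold, although all 3 had an unadjusted p-value under 0.05, and DESeq2 called *Hey1* (adjusted p = 0.0337). *Hes1* (ENSMUSG00000022528, chromosome 16, 29883202 to 29886614), a repressor whose level oscillates in progenitors, was at 17.6, 17.6, 16.9 and 14.1 CPM in CDD brains and at 14.45, 14.7, 13.1 and 14.2 CPM in ND brains. *Hes5* (ENSMUSG00000048001, chromosome 4, 155045380 to 155046828), the target most closely tied to Notch in radial glia, was at 20.4, 19.1, 19.4 and 16.1 CPM in CDD brains and at 17.7, 16.4, 15.3 and 15.5 CPM in ND brains. For both genes CDD replicate 4 lay among the ND brains, whereas the other 3 CDD brains were above all ND brains for *Hes1* and for *Hes5*. On the log2 scale the difference was 0.23 for *Hes1* (SE 0.080, adjusted p = 0.0751) and 0.21 for *Hes5* (SE 0.078, adjusted p = 0.106). Without CDD replicate 4 they were 0.30 (adjusted p = 0.0120) and 0.27 (adjusted p = 0.0200). *Hey1* (ENSMUSG00000040289, chromosome 3, 8728419 to 8732316), a related repressor, was at 30.0, 25.5, 27.4 and 27.6 CPM in CDD brains and at 25.3, 24.9, 23.7 and 22.1 CPM in ND brains. Its groups did not overlap, by the narrow margin between CDD replicate 2 and ND replicate 1, and the difference on the log2 scale was 0.20 (SE 0.065, adjusted p = 0.0601; without CDD replicate 2, adjusted p = 0.0381). The 95% intervals of the 3 targets, 0.066 to 0.40 for *Hes1*, 0.043 to 0.37 for *Hes5* and 0.065 to 0.34 for *Hey1*, each hold the fold changes of all 3 receptors and all 3 ligands.

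To show what sequence stands before these genes, the promoter table of RefSeq (build GRCm38.p6) was searched for the letters that RBPJ is known to bind, TGGGAA as a core and GTGGGAA as the longer site, on both strands. The table held 8 of the 10 genes, in 10 windows of 250 bases before the start, 2 each for *Dll1* and *Rbpj*. *Hes1* and *Hey1* had no entry. The core was found in 3 of the 10 windows, that of *Hes5* and both of *Rbpj*, and in 21.6% of all 32851 windows. The 2 windows of *Rbpj* overlap. The core of the second, 205 bases before its start, is the same stretch as that 65 bases before the start of the first. By gene, the core was thus found for 2 of 8, a share near that of all windows. The longer site was found for *Hes5* only among the 10, and in 5.42% of all windows. In *Hes5* it stood once on each strand, which was so in 18 of the 32851 windows (0.0548%). The windows of *Hes5* (chr4:154960673-154960922, plus strand) and *Rbpj* (chr5:53590096-53590345, plus strand) are printed for their matches and that of *Dll3* (chr7:28301786-28302035, minus strand) as the gene with the largest change, which holds no core in this window. Sequences run 5′ to 3′ and capitals mark the core on either strand.
Hes5: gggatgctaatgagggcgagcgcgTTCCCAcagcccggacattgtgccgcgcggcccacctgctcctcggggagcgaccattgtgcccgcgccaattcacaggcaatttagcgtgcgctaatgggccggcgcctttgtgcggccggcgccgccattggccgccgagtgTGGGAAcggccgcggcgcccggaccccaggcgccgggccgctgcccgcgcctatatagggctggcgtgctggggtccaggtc
Rbpj: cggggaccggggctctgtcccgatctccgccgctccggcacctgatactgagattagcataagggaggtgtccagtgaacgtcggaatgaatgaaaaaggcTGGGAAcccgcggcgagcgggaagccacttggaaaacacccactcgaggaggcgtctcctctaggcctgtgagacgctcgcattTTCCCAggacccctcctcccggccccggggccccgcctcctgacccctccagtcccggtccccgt
Dll3: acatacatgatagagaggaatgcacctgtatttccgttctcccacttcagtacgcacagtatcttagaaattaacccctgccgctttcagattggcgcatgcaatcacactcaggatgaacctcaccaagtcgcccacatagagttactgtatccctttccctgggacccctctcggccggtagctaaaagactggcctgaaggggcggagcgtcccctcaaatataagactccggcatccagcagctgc
The cores of *Hes5* begin 226 and 82 bases before the start, with 138 bases between them, and those of *Rbpj* 149 and 65 bases before it. These letters are a description of the sequence, and binding was not measured in these brains.

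Per length, the level of the 10 genes followed the same order in both diets. *Dll1* was highest, at 16.5 ± 0.765 FPKM (SD, n = 4) under CDD and 14.6 ± 1.38 FPKM (SD, n = 4) under ND, above *Hes5*, *Notch1*, *Notch3*, *Rbpj*, *Notch2*, *Dll3*, *Hey1*, *Hes1* and *Jag1* in that order. *Jag1* was lowest, at 6.65 ± 0.457 FPKM (SD, n = 4) under CDD and 5.76 ± 0.181 FPKM (SD, n = 4) under ND. Neighbours in this order were mostly not apart: the brains of adjacent genes overlapped except between *Dll1* and *Hes5* and between *Dll3* and *Hey1* in both diets, and between *Notch3* and *Rbpj* and between *Hes1* and *Jag1* in ND brains. Although *Hes5* and *Hes1* had similar counts, *Hes5* has the shorter listed length (1363 against 2037 bases) and the higher level per length.

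Within the ligand RNA, every CDD brain held a larger share of *Dll3* and a smaller share of *Jag2* than every ND brain. These shares come from the same reads as the tests and were not tested themselves. Summed FPKM of *Dll1*, *Dll3*, *Dll4*, *Jag1* and *Jag2* was taken as 100% in each brain. *Dll3* made up 21.7%, 22.1%, 22.1% and 21.9% of it in CDD brains and 19.2%, 18.3%, 18.5% and 18.5% in ND brains. For *Jag2* the share was 24.3% ± 1.36 (SD, n = 4) under CDD and 31.1% ± 1.49 (SD, n = 4) under ND. The shares of *Dll4* overlapped. *Dll1* overlapped too, with means of 35.0% ± 0.661 (SD, n = 4) for CDD and 32.6% ± 1.85 (SD, n = 4) for ND. Among the receptors the shares of all 4 genes overlapped between the diets. *Notch1* held 34.7% ± 1.41 (SD, n = 4) of the summed receptor FPKM under CDD and 33.6% ± 1.41 (SD, n = 4) under ND, *Notch2* and *Notch3* between 25.8 and 34.3% in every brain, and *Notch4* between 6.23 and 8.37%.

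**Figure D3:**
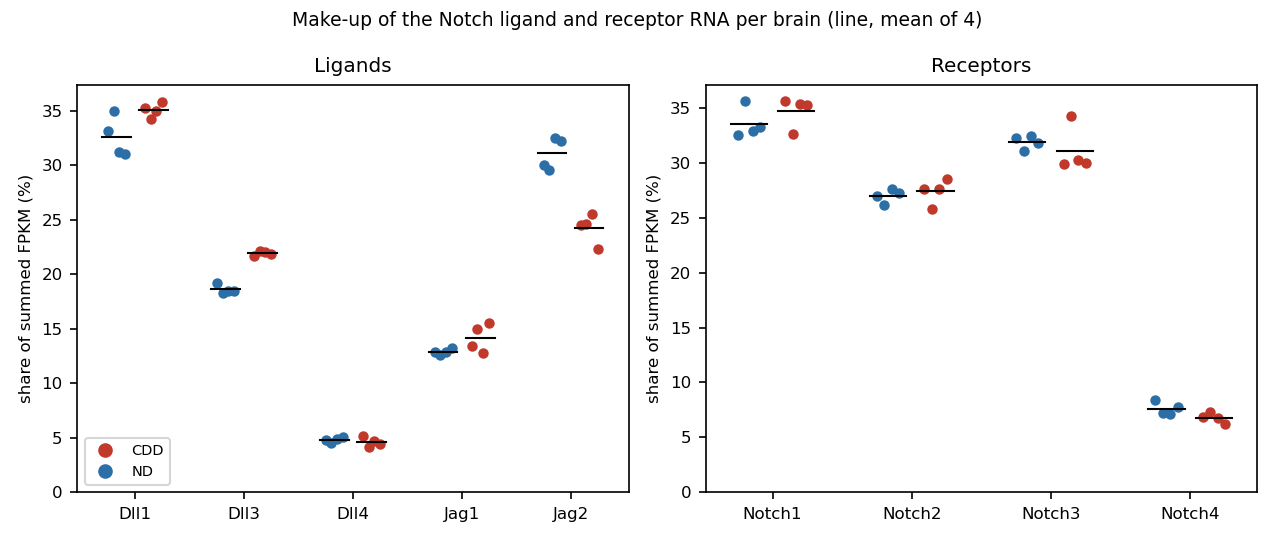
Share of the summed FPKM of the 5 ligand genes (left) and the 4 receptor genes (right) held by each gene, in percent, in every ND (blue) and CDD (red) brain, with a line at the mean of 4 brains. *Dll3* is at 18.3 to 19.2% in ND and 21.7 to 22.1% in CDD brains, and the mean of *Jag2* is 31.1% in ND and 24.3% in CDD brains.

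Ratios between 2 genes inside a brain do not depend on how libraries are scaled, and 6 pairs were set against diet with a two-sided, exact permutation test (smallest possible p = 0.0286). The ratio of *Dll1* to *Dll3* FPKM was 1.62, 1.55, 1.58 and 1.64 in CDD brains and 1.72, 1.91, 1.69 and 1.68 in ND brains. It was lower in every CDD brain than in every ND brain (exact p = 0.0286), but did not pass adjustment over the 6 pairs (adjusted p = 0.171, exact permutation test). A single pair at the smallest possible p cannot pass this adjustment with so few brains, so nothing is concluded from the miss. The difference of *Dll1* to *Jag1*, *Notch1* to *Notch2*, *Notch1* to *Notch3*, *Hes1* to *Hes5* and *Hes5* to *Hey1* lay between -0.023 and 0.086 on the log2 scale, with exact p-values of 0.400 to 1. Without CDD replicate 2 the difference of *Notch1* to *Notch3* was 0.16 (exact p = 0.0571), and without ND replicate 2 that of *Notch1* to *Notch2* was 0.071 (exact p = 0.0571). For *Hes5* to *Hey1* it was 0.0019, with SDs of 0.153 in the CDD and 0.058 in the ND group.

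The remainder of the pathway was mixed in direction. A list of 61 genes of Notch signaling was used, of which 60 passed the filter on low counts. Of these, 9 were called higher (15%) and 6 lower (10%), where 4.24% and 4.59% of all genes tested were. Leaving aside the 10, of 50 genes 4 were called higher and 6 lower, with a median log2 fold change of 0.03. Under DESeq2, 13 of the 60 were called higher and 10 lower, and without ND replicate 3 the counts with edgeR's test were 1 and 3.

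Among the other ligands, *Jag2* (a second Jagged ligand) fell, in contrast to *Jag1*. It was at 82.0, 77.3, 87.4 and 72.4 CPM in CDD brains and at 96.2, 96.1, 97.2 and 98.9 CPM in ND brains. The ND brains were tight and all above the CDD brains, and *Jag2* fell by 0.28 on the log2 scale (SE 0.051, adjusted p = 0.00287). *Dll4*, the ligand of sprouting vessels, differed by 0.0061 on the log2 scale (adjusted p = 0.981), and *Notch4*, the endothelial receptor, by 0.04 (adjusted p = 0.753). Of the atypical ligand genes, *Dlk1* rose by 0.20 (adjusted p = 0.0120), whereas its relative *Dlk2* was at 15.2 to 25.1 CPM in CDD and 29.1 to 32.9 CPM in ND brains and fell by 0.56 on the log2 scale (adjusted p = 0.0353).

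Genes for enzymes that act on ligands and receptors went both ways. Of the ubiquitin ligases that drive ligand uptake, a step that pulls on the bound receptor, *Mib1* rose by 0.21 (adjusted p = 0.0398), and *Neurl1a* and *Neurl1b* fell by 0.22 (adjusted p = 0.0483) and 0.32 (adjusted p = 0.00515). The diets overlapped for *Mib1* and *Neurl1a*, and of the 4 listed ligases limma-voom called 0 higher and 1 lower. *Neurl1b* was at 24.7 to 31.1 CPM in CDD and 34.5 to 35.3 CPM in ND brains, without overlap. *Pofut1*, which adds the fucose that Notch receptors need for ligand binding, rose by 0.17 (adjusted p = 0.0278), and *Lfng*, a Fringe enzyme that extends this fucose, differed by 0.08 on the log2 scale (adjusted p = 0.523). Of the 10 genes of receptor cleavage (furin, the ADAM proteases and γ-secretase) edgeR called 0, with log2 fold changes between -0.22 and 0.16 and 3 at an unadjusted p-value under 0.05, and DESeq2 called 1.

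Of the regulators, *Itch*, a ubiquitin ligase that targets Notch, rose by 0.16 (adjusted p = 0.0424), and *Dtx1*, a Deltex protein, fell by 0.18 (adjusted p = 0.0253). Of the 8 feedback inhibitors on the list, to which both belong, limma-voom called 0 higher and 1 lower. *Bend6*, whose product binds RBPJ and represses Notch targets in neurons, showed the smallest p-value of the whole list. It was at 29.0 to 32.4 CPM in CDD and 39.4 to 45.5 CPM in ND brains, and fell by 0.43 on the log2 scale (SE 0.061, adjusted p = 9.02e-04). *Nrarp*, a feedback inhibitor that Notch itself induces, was at 17.3 to 18.1 CPM in CDD and 14.7 to 18.1 CPM in ND brains, a difference of 0.16 on the log2 scale (adjusted p = 0.195). *Hes6*, which is expressed in committed precursors and opposes *Hes1*, was the most abundant Hes gene per length and differed by -0.02 on the log2 scale (adjusted p = 0.879).

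**Figure D4:**
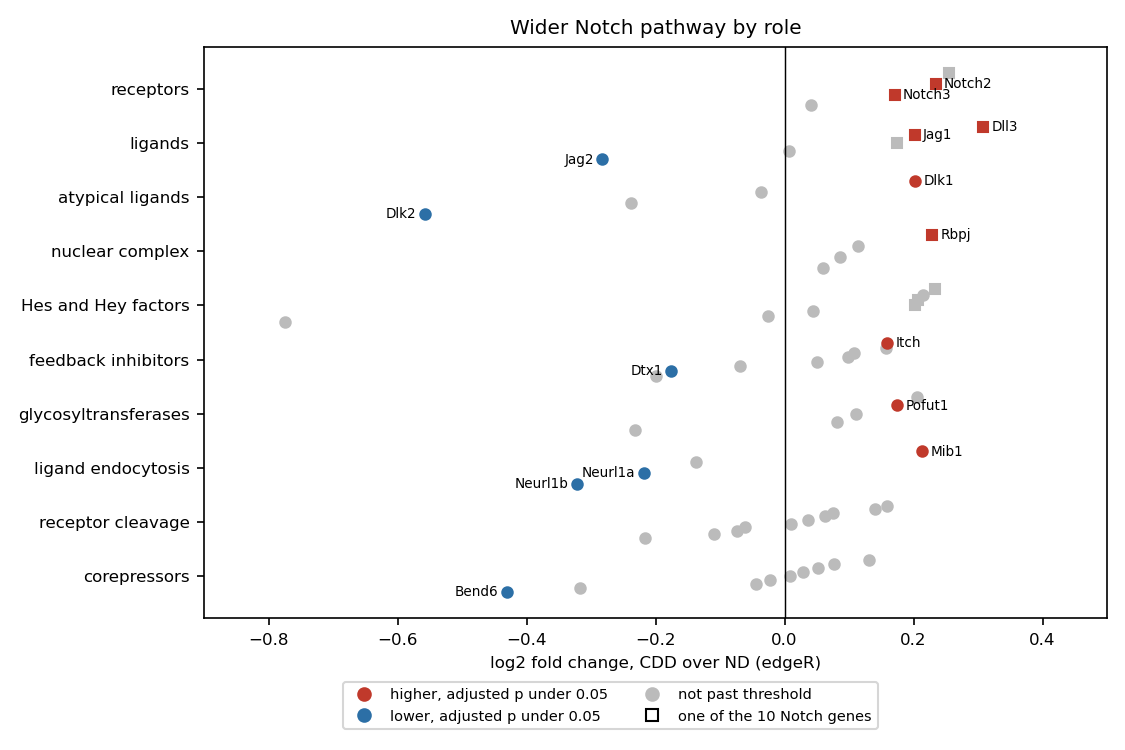
Log2 fold change of CDD over ND (horizontal axis) for the 60 tested genes of the wider Notch list, in rows by role, with called genes in red (higher) or blue (lower) and named, other genes in grey, and the 10 Notch genes as squares. The squares all lie right of 0, between 0.17 and 0.31, and the called falls reach -0.56 for *Dlk2* and -0.43 for *Bend6*. The grey point farthest left is *Hes7*, at -0.77.

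Markers of cell types that carry the pathway moved with the diets as well, and were measured in the same fit. Of 10 radial glia genes, 6 were called higher and 0 lower, where 4.24% of all genes tested were called higher. The smallest p-values were those of *Gli3* (log2 fold change 0.45), *Prom1* (0.36) and *Nes* (0.47). The log2 fold change was below 0 for *Fabp7* (-0.043) and *Ptprz1* (-0.099, unadjusted p = 0.0482 in edgeR's test). For *Ptprz1* every CDD brain was below every ND brain. The summed level of the 10 was 2061.3 to 2255.8 CPM in CDD and 1923.8 to 2007.4 CPM in ND brains. Of these sums, *Nes* alone held 320.9 to 425.0 CPM in CDD and 245.7 to 282.8 CPM in ND brains. Of 10 genes of proliferating cells, 9 were called higher, led by *Mcm2*, *Mcm5* and *Ccnb1*, and their sum was 992.4 to 1222.6 CPM in CDD and 788.9 to 908.3 CPM in ND brains. With 1 brain left out, 4 to 6 radial glia genes and 6 to 9 genes of proliferating cells were called higher. Neither sum overlapped between the diets, nor did that of the 10 Notch genes, at 694.8 to 784.8 CPM in CDD and 613.7 to 688.2 CPM in ND brains. For the sums of the 10 Notch genes, radial glia and proliferating cells alike, the highest ND brain was ND replicate 2 and the highest CDD brain CDD replicate 4. The lowest CDD brain was CDD replicate 2 for the Notch genes, and CDD replicate 3 for radial glia and proliferating cells. The proneural gene *Neurog2* rose by 0.32 on the log2 scale (adjusted p = 0.00475). *Neurog1* (log2 fold change 0.46, adjusted p = 0.0659) and *Atoh1* (-0.31, adjusted p = 0.719) were not called. The part of these cell types in the Notch result was not tested.

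The remaining marker lists differed from each other in direction. The log2 fold change was below 0 for all 8 mural cell genes and for 8 of 10 endothelial genes. It was above 0 for all 3 primitive erythroid genes, 5 of 6 choroid plexus genes and 2 of 6 meningeal genes. For postmitotic neurons it was above 0 for 5 of 10, for intermediate progenitors for 3 of 5, and for 49.1% of all genes tested. Of 5 genes of intermediate progenitors 1 was called higher (*Btg2*), and of 10 genes of postmitotic neurons 2 were called lower (*Snap25* and *Gap43*), with overlapping sums in both lists. Of 10 endothelial genes 1 was called lower (*Cldn5*) and of 8 mural cell genes 2 (*Vtn* and *Rgs5*). Endothelial sums were 290.3 to 315.1 CPM in CDD and 315.5 to 336.2 CPM in ND brains, just without overlap. The mural sum was 211.7 to 223.0 CPM in CDD and 230.7 to 251.7 CPM in ND brains, without overlap, opposite in direction to *Notch3* and *Jag1*. Of 6 meningeal genes 1 was called higher (*Lum*) and 2 lower (*Col1a1* and *Col1a2*), of 6 choroid plexus genes 1 higher (*Otx2*), and of 3 primitive erythroid genes 2 higher (*Hbb-y* and *Hba-x*). These counts were small and leaned on single brains. Those for neurons fell to 0 without ND replicate 1, 3 or 4, for mural cells to 0 without ND replicate 3, for meningeal genes called lower to 0 without ND replicate 1 or 3, and for choroid plexus to 0 without ND replicate 1, 3 or 4. The count of meningeal genes called higher was 1 without CDD replicate 3 and 0 without any other brain. The erythroid count was 1 to 3, the endothelial count 1 throughout and that of intermediate progenitors 1 to 2. The erythroid sum was 114.2 to 221.7 CPM in CDD and 33.3 to 45.0 CPM in ND brains. The part of these cells in the Notch result was not tested either. Of 10 Hox genes of the caudal neural tube, 0 passed the filter. In no list of these was a gene at 0 in all 8 brains.

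**Figure D5:**
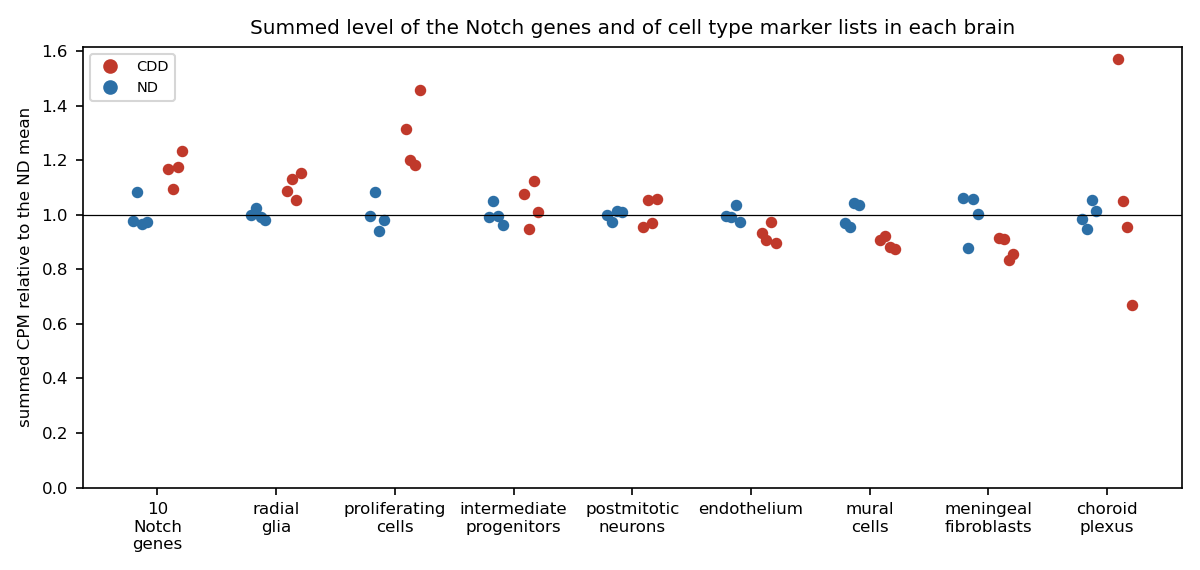
Summed CPM of the 10 Notch genes and of marker lists in every ND (blue) and CDD (red) brain, divided by the ND mean of the list (vertical axis, from 0). The Notch genes, radial glia and proliferating cells lie higher, and endothelial and mural cells lower, in all CDD brains than in all ND brains, and choroid plexus genes spread widely over the CDD brains.

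For each called gene of the 10, the nearest profiles over the 8 brains were looked up among the 12333 genes that averaged 5 CPM or more, by the root mean square difference of centred log2 CPM. They were *Syne2* (0.018) and *Foxm1* (0.024) for *Notch2*, *Mapkapk2* (0.025) and *Utp23* (0.026) for *Notch3*, *Sdf2l1* (0.034) and *Smo* (0.048) for *Dll3*, *Tnks2* (0.014) and *Dhx9* (0.018) for *Jag1*, and *Zfp507* (0.018) and *Ago1* (0.026) for *Rbpj*. *Dll3* had the largest difference from its nearest profile, at 0.034. It also had the largest root mean square deviation of its own over the brains, at 0.163. For *Notch3* these values were 0.025 and 0.101, so relative to its own deviation the match of *Dll3* was not the least close.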

How the data were processed

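Samples were grouped by maternal diet as labelled, and all 8 brains were used. The authors deposited read counts of each gene in each brain, not normalized, and FPKM values made from them with a listed gene length. The submitters' processing notes name HISAT2 2.0.5, featureCounts 1.5.0-p3 and DESeq2 1.20.0. The genome build and the strand setting of the counting are not given in the sources used here, so positions are as the authors list them: 0 of the 10 Notch genes have the same start in GENCODE M21. The deposited table also holds size-factor-normalized values and the authors' own fold changes and p-values, which were not used, nor were 3 tables with subsets of its rows.

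Low counts were removed by filterByExpr (19367 genes left), libraries were scaled by TMM, and diet, the sole term, was tested by the robust quasi-likelihood method in edgeR 4.0.16. Adjusted p-values are Benjamini-Hochberg values over all genes tested and come from edgeR unless another tool is named. FPKM values entered levels, shares and ratios only. The test was tried on simulated counts first. It called 11 of 63 genes with a true log2 fold change of 0.25 in the right direction, 45 of 67 at 0.5 and 53 of 62 at 1. Of the unchanged genes, 10 were called. Changes of about the size seen in the 10 Notch genes were thus mostly missed in the simulation. Its changed genes were drawn from all tested genes at any count level. They were also a smaller share of all genes than the share called in the brains. The simulated rate is therefore not that of the 10 Notch genes, and a gene not called is not shown to be unchanged. R 4.3.3, limma 3.58.1, DESeq2 1.42.0, Python 3.11.15, pandas 2.3.3 and matplotlib 3.10.9 were used. Antisense transcripts overlapping the 10 genes held at most 1.68% of their counts. Alternatives were DESeq2, limma-voom, RLE and upper-quartile scaling, a looser filter (none) or a stricter one (10 counts in all brains), an offset for gene length (loess, span 0.3), a block for the replicate number, block and offset together, leaving out each brain, the deposited FPKM values as log2(FPKM + 1), and, for ratios, CPM.

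The 10 genes and all lists were chosen with earlier results of these data known. Named were the 10, every other called gene of the wider list, *Notch4*, *Dll4*, *Hes6*, *Lfng* and *Nrarp*, the 2 genes nearest to each called one, and up to 3 genes of each marker list, by p-value, with *Neurog2*. A further result that the rule names is not reported here. *Neurog1*, *Atoh1*, *Ptprz1* and *Fabp7* were named after their values were seen. Intervals cover the spread between brains.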

Additional observations from a re-analysis of the deposited data

Results flagged for a closer look

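Each group of 4 brains was examined for a highest or lowest brain far from the other 3, over the 10 genes and the 6 ratios. Of 32 groups, 3 held such a brain, where chance gives about 1.6. The log2 ratio of *Notch1* to *Notch2* reached 0.45 in ND replicate 2, more than in its 3 fellow ND libraries. In CDD replicate 2, the library with many Hox reads, the log2 ratio of *Notch1* to *Notch3* was -0.071, below the other CDD brains, and that of *Hes1* to *Hes5* was -0.69, above them.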

How the results depend on the processing

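The direction of the 10 log2 fold changes was the same under every alternative run. Of the 10 genes, 5 were called higher by edgeR; the number was 9 with no filter on low counts, 9 with a gene length offset and 9 with this offset and the replicate block together, 7 with DESeq2 and 6 with limma-voom, and 1 to 6 with each brain left out. In the wider list, 9 genes were called higher, against 14 with no filter, 15 with the length offset, 15 with the offset and the replicate block, and 1 to 11 with a brain left out. The 6 called lower were 10 with DESeq2 and 3 to 9 with a brain left out. Of all genes tested, 4.24% were called higher in the main fit and 3.36% with no filter. With the length offset it was 6.36%, and 6.17% with offset and block. DESeq2 called 7.12% higher and limma-voom 3.36%, and the share was 1.04 to 6.21% with a brain left out. In either direction it was 8.83% in the main fit, 13.9% with DESeq2 and 2.4 to 12.7% with a brain left out. The cause of these moves was not tested. The length offset also moved the share of higher calls among all called genes from 48.1% to 59.2%. *Notch1* was called with DESeq2, limma-voom and no filter, and missed the threshold under all scalings and under the length offset. No source says that a replicate number marks a shared litter or day. Deviations of same-numbered brains had correlations of 0.105, -0.133, 0.117 and 0.232. CDD replicates 1, 3 and 4 correlated best with the ND brain of their own number and CDD replicate 2 with ND replicate 4 (0.214), a hint from the data, not the design, so the brains were not treated as paired. With the replicate block, 5 of the 10 and 10 of the wider list were called higher and 8 lower, and 1812 genes in all against 1710. With a brain left out, each log2 ratio difference moved by less than the larger of the CDD and ND SDs, but not always by less than the smaller. That of *Hes5* to *Hey1* went from 0.0019 to 0.073 without CDD replicate 4, with SDs of 0.153 (CDD) and 0.058 (ND). The differences of *Dll1* to *Jag1*, *Hes1* to *Hes5* and *Hes5* to *Hey1* changed sign in some of these fits.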

Other observations

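Brains differed in which Notch genes they held most of. In the ND group, ND replicate 2 was highest for 6 of the 10 genes and lowest for 0, and ND replicate 3 was lowest for 6 and highest for 0. In the CDD group, CDD replicate 2 was lowest for 6 of the 10 and highest for 2, and CDD replicate 4 was highest for 4 (among them *Notch1*, *Notch2*, *Jag1* and *Rbpj*) and lowest for 2 (*Hes1* and *Hes5*). *Hes7*, a Hes gene of somite segmentation, was at 0.36 CPM in CDD and 0.62 CPM in ND brains (difference -0.77 on the log2 scale, adjusted p = 0.131), and was named after its values were seen.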
